A study of Xenopus laevis with 3 samples.

Results

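The 2 copies of palb2 in Xenopus laevis, the African clawed frog, were examined for coding variants found by RNA sequencing of whole tadpoles. They were found by the symbol palb2 in the authors' pair table, which gives Xelaev18045420m as the copy on the long (L) subgenome and Xelaev18047689m as the copy on the short (S) subgenome. These are 2 of the 11603 genes listed with an amino acid change, and they hold 42 of the 29008 missense sites. The frog is allotetraploid, and such a pair of copies is called homeologs; they are written palb2.L and palb2.S. The gene was chosen by its number of sites predicted to damage the protein, which was high in both copies, so those counts are given as a description, with no test.

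There were 3 libraries at Nieuwkoop-Faber (NF) stage 42: an inbred albino cross, an inbred pigmented cross of the J strain, and offspring of albino and J strain parents. Each RNA sample came from 10 pooled tadpoles per cross, and 30000000 to 47000000 paired reads of 100 bases were stated for each library. The letter codes for the strains contradict each other in the labels and were not used. There was 1 library per group, and no column of the tables names a library or strain, so each site belongs to the series as a whole, and the strain that carries it is not known here. No expression values were used here, so the labelled tissue was not checked by markers.

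In humans, PALB2 is the partner and localizer of BRCA2. It bridges BRCA1, bound at its N-terminal coiled coil, to BRCA2, bound at its C-terminal WD40 propeller, in the repair of broken DNA by homologous recombination. Loss of PALB2 causes a form of Fanconi anaemia and raises the risk of breast cancer. The frog copies were not mapped to these domains, because no protein sequence was used here, and no position below is assigned to a domain.

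Both copies carried many changes of either kind. The L copy held 18 missense and 12 synonymous sites, and the S copy held 24 missense and 15 synonymous sites. The median listed gene held 1 missense and 2 synonymous sites. These counts are not adjusted for protein length or read depth, and a longer protein has more room for sites of either kind. Synonymous sites, which did not enter the choice of the gene, were also numerous: 565 listed genes held at least 12 and 306 held at least 15. Missense sites made up 60.0% of the coding sites of palb2.L (Wilson 95% interval 42.3 to 75.4) and 61.5% of those of palb2.S (45.9 to 75.1). Over all listed genes together the share was 42.9%. The damaging sites by which the gene was chosen are among its missense sites, so the palb2 shares are a description only. These intervals cover counting error only, and every listed gene has at least 1 missense site, which raises all such shares.

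PolyPhen-2 sorts an amino acid change into benign, possibly damaging or probably damaging from a predicted probability of damage; in these data possibly damaging sites began at 0.447 and probably damaging sites at 0.909. In palb2.L, 12 sites were benign and 6 possibly damaging, with 0 of 18 probably damaging. That 0 is exact for the listed sites. Read as a sample, a count of 0 was taken to allow up to 3 sites, or a share of up to 16.7%, and the Wilson interval reaches 17.6%. In palb2.S, 10 were benign, 4 possibly damaging and 2 probably damaging, and 8 had no prediction. The damaging share of predicted sites was thus 33.3% in L (6 of 18, Wilson interval 16.3 to 56.3) and 37.5% in S (6 of 16, 18.5 to 61.4), beside 19.9% over all genes. The gene was chosen by these damaging counts, so the palb2 shares are a description only. The share over all genes is not matched to palb2 for alignment depth, which is described below. At least 6 damaging sites were held by 32 listed genes.

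The 2 copies differed in where the first listed missense change lay. Synonymous sites are counted per gene with no position, so their places are not known here. In palb2.L, missense positions ran from 668 to 1411, and no listed missense change lay before residue 668. In palb2.S they ran from 5 to 1345, and 6 sites lay within the first 400 residues. Protein positions are counted from 1 in the authors' model of each copy, so equal numbers in L and S need not be the same residue. The length of each model was not used here.

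The 6 damaging sites of palb2.L were S668F, P722L, A792S, P852R, S1337R and A1411G, with the reference residue written first. Their probabilities were 0.692, 0.856, 0.578, 0.908, 0.514 and 0.578, so P852R fell just short of the class above. Of these sites, 4 lay between residues 668 and 852 and the other 2 between 1337 and 1411. P852R and S1337R lay 485 residues apart, with no damaging site between them.

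That interval held 8 benign sites of palb2.L, and 6 of them were crowded together. S1004L, L1005P, S1010A, R1039S, H1042Q and S1049N fell within 46 residues, and the first pair are neighbouring residues. All 6 had a probability of 0. The largest group of sites no more than 30 residues apart in palb2.S had 3 members, D1033G, G1046S and P1052L, within 20 residues. The remaining benign sites of palb2.L were A716V, R736C and E747D upstream, and Q1142R, D1224N and I1400V downstream. A716V had a probability of 0.006 and the other 11 benign sites of that copy had 0.

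The damaging sites of palb2.S were spread from residue 598 to 1270. G598S and G1046S were probably damaging, each with a probability of 0.934. P636T (0.81), K782Q (0.617), P1052L (0.856) and L1270V (0.578) were possibly damaging. G1046S and P1052L lay 6 residues apart, and R1263Q, the benign site nearest the boundary with a probability of 0.412, lay 7 residues before L1270V. The remaining benign sites of palb2.S were I461T, V697L, T835A, Q891K, T916A, D1033G, V1099A, T1202S and R1313K, with probabilities from 0 to 0.095.

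The 8 sites of palb2.S without a prediction were V5M, I130S, V257I, R301T, S322F, L369F, S404L and A1345V. The first 7 were the 7 sites nearest the start of the model, and A1345V was the last. All 8 had 0 aligned residues. The changes of the first 404 residues of palb2.S therefore carried no class, and its 16 predictions ran from residue 461 to 1313. In palb2.L no missense site lacked a prediction (0 of 18, with the same limits as above), but it had no missense site before residue 668.

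**Figure D1:**
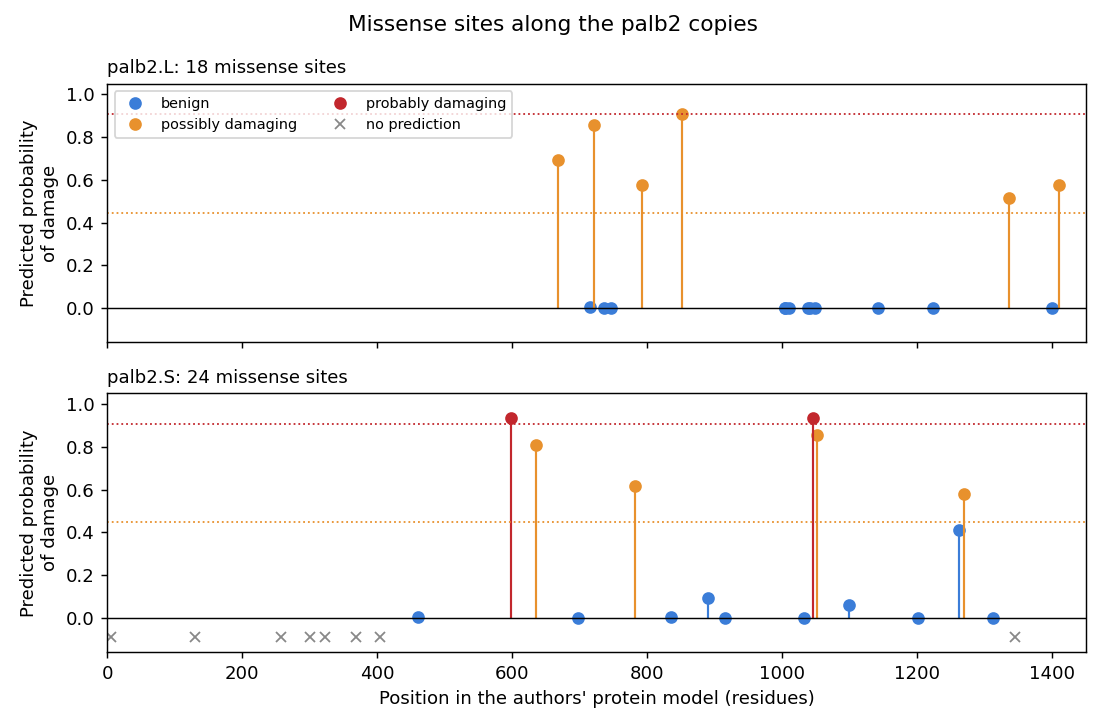
Missense sites of palb2.L and palb2.S by position in the authors' protein model (x axis, residues) and predicted probability of damage (y axis, 0 to 1); colours give the predicted class, crosses below 0 are sites with no prediction, and dotted lines mark where the possibly (0.447) and probably damaging (0.909) classes begin. The 6 crowded benign sites of palb2.L at residues 1004 to 1049 lie at 0, and 7 of the 8 sites without a prediction lie in the first 404 residues of palb2.S.

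The alignments behind these predictions were thin. PolyPhen-2 compares a residue with those found at the same place in related proteins, and the file gives the number of residues aligned at each site. All 18 sites of palb2.L rested on 1 aligned residue. Of the 16 predicted sites of palb2.S, 15 rested on 2 and I461T on 6. Over all 24110 predicted sites the median was 44 aligned residues, 14.1% had 1 or 2, and 71.6% had 10 or more. No site of either palb2 copy had 10 or more, so damaging shares at that depth could not be given for this gene.

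Among the 1112 genes with at least 5 predicted sites, the median aligned residues per gene was 40 at the middle gene and at most 2 in 145 genes (13.0%). In 69 of them no site had more than 2 aligned residues, and in 35, palb2.L among these, none had more than 1. The most damaging sites in any of these 35 genes was 6, held by palb2.L and 1 other gene. The choice of palb2 rested on this count, so its place among them is a description only. Of the 32 genes with at least 6 damaging sites, 8 had a median of at most 2 aligned residues, both palb2 copies included.

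**Figure D2:**
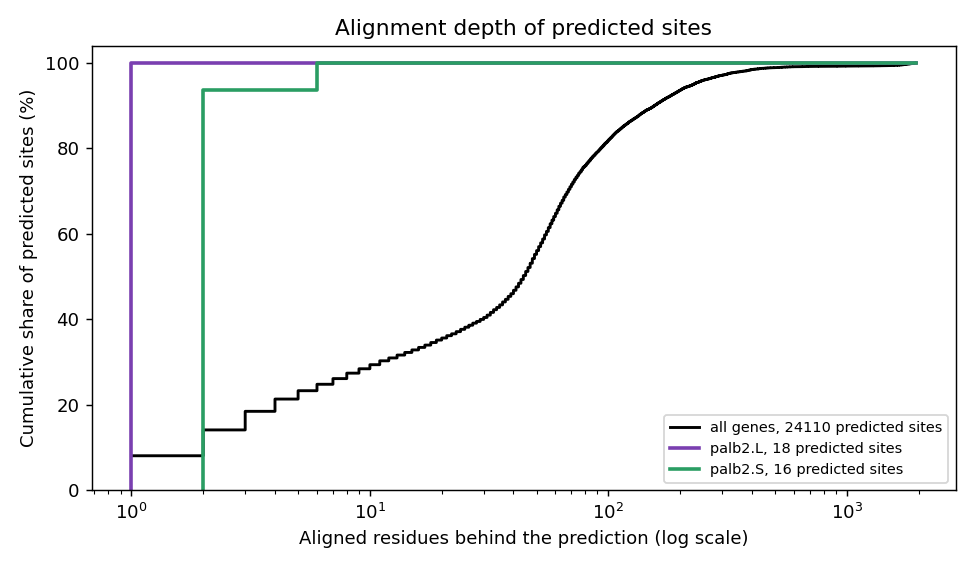
Cumulative share of predicted sites (y axis, %) by the number of aligned residues behind the prediction (x axis, log scale) for all genes, palb2.L and palb2.S. The curve for palb2.L is complete at 1 aligned residue and that for palb2.S at 6, where 24.8% of all predicted sites have been reached.

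The classes of the palb2 sites went with the residues found in the aligned sequences. At all 12 damaging sites of the 2 copies, no aligned sequence differed from the frog reference residue. At 15 of the 22 benign sites, an aligned sequence carried the variant residue itself: 11 of the 12 benign sites of palb2.L and 4 of the 10 of palb2.S. At 5 other benign sites, A716V, I461T, V1099A, T1202S and R1313K, an aligned sequence differed from the reference but none carried the variant. At the last 2, Q891K and R1263Q, the aligned residues equalled the reference. The alignment is an input to the prediction, so this is no second line of evidence for the classes.

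The scores show the same split. PolyPhen-2 gives each residue a profile score, and the difference between reference and variant is positive where the reference fits the alignment better. In palb2.L the difference was 0.955 to 2.08 at the damaging sites and -1.77 to 0.226 at the benign sites, so the classes did not overlap. In palb2.S it was 0.846 to 1.73 and -1.91 to 1.09, and they overlapped through V1099A (0.941) and R1263Q (1.09). The homologue that differed from palb2.L was 50.0% identical to it at every site where one was listed. For palb2.S the listed identity was 3.79% to 47.0%, and the lowest was that at I461T.

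**Figure D3:**
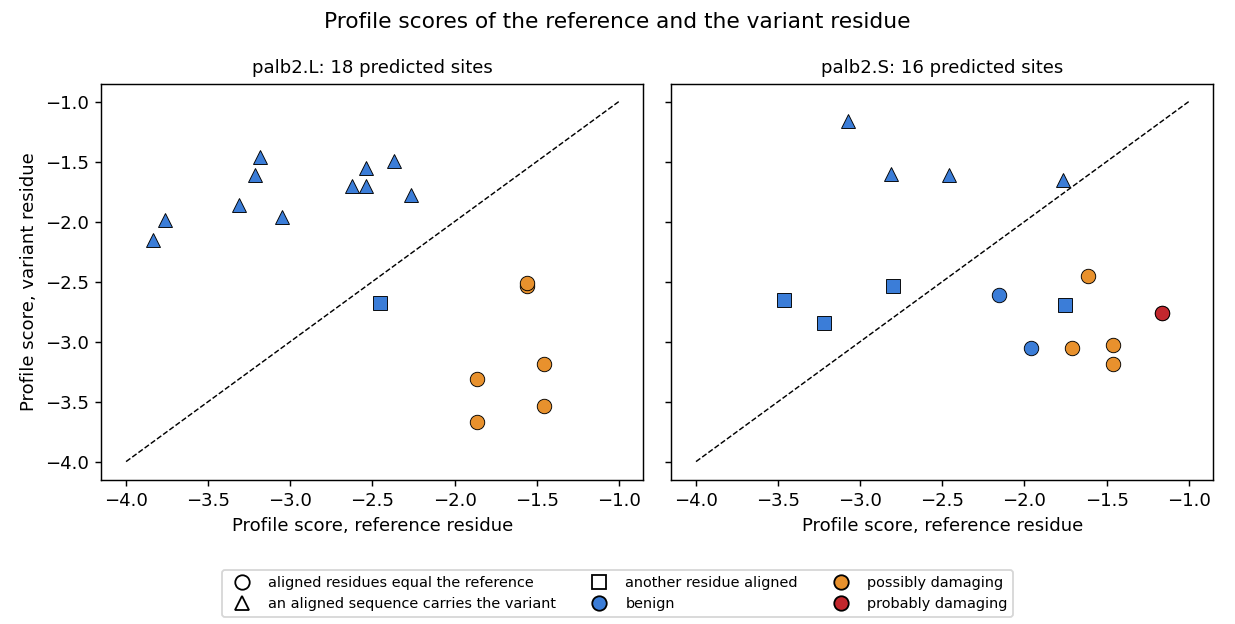
PolyPhen-2 profile scores of the reference residue (x axis) and the variant residue (y axis) at the predicted sites of each copy; colour gives the class, marker shape gives what the alignment held, and the dashed line marks equal scores. Squares are sites where an aligned sequence differs from the reference and none carries the variant. All triangles, where an aligned sequence carries the variant, lie above the line and are benign; all 12 damaging sites lie below it, with G598S and G1046S on the same point.

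Sites of other genes with equally few aligned residues give the scale for the palb2 values. With 1 or 2 aligned residues, 854 of 1260 sites (67.8%) in other genes were damaging where the alignment held the reference residue alone. Where an aligned sequence carried the variant, 0 of 969 were damaging, and where it held another residue, 24 of 1143 (2.10%). In palb2 the corresponding counts were 12 of 14, 0 of 15 and 0 of 4, with I461T left aside for its 6 aligned residues. The 12 damaging sites are those by which the gene was chosen, so these palb2 counts are a description only. Over all genes the damaging share was 27.3% at 1 aligned residue, 24.6% at 2, 18.1% at 3 to 9, 17.7% at 10 to 49 and 19.9% at 50 or more.

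**Figure D4:**
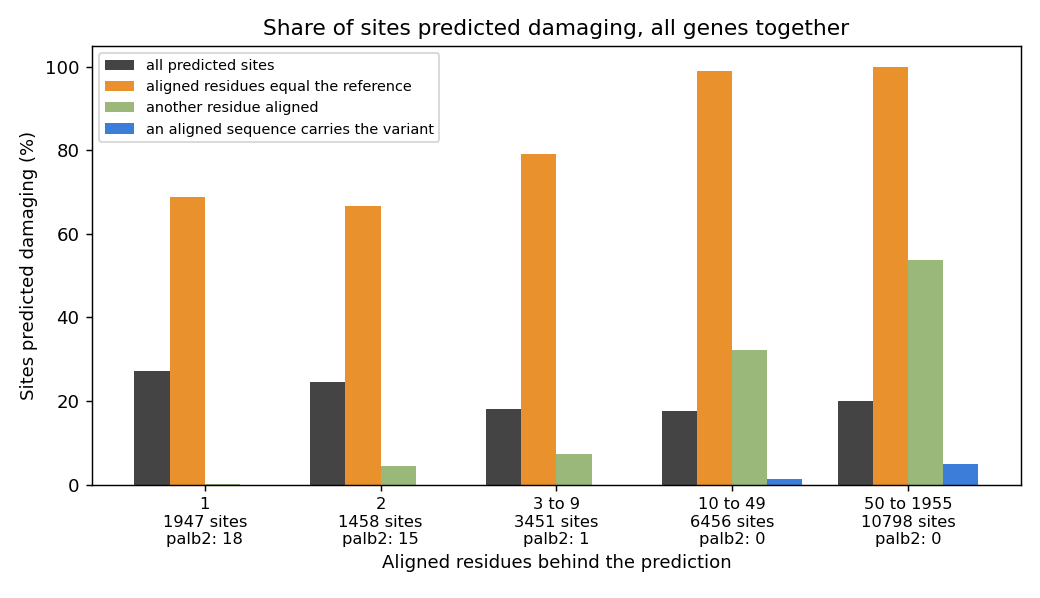
Share of sites predicted damaging (y axis, %) in all genes together, by aligned residues behind the prediction (x axis) and by what the alignment held; site numbers stand under each group, with those of palb2. The share where the alignment held the reference residue alone was 68.7% at 1 aligned residue and 100% at 50 or more, and all but 1 of the 34 predicted palb2 sites fall in the first 2 groups.

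Where the alignment held the reference residue alone, the kind of residue lost also went with the class at this depth. At 1 aligned residue equal to the reference, each of the 20 amino acids had 1 reference score in the whole table. Proline was lost at 4 palb2 sites (P722L, P852R, P636T and P1052L), all damaging, and glycine at 2 (G598S and G1046S), both probably damaging. In other genes with 1 or 2 aligned residues equal to the reference, all 96 sites that lose proline, all 78 that lose glycine, all 84 that lose alanine and all 87 that lose leucine were damaging. Lysine, the residue lost at K782Q, was damaging at 53 of 54 such sites. These 5 residues account for 10 of the 12 damaging palb2 sites, and serine, damaging at 66 of 125 sites elsewhere, accounts for S668F and S1337R. Glutamine and arginine, lost at the benign sites Q891K and R1263Q, were damaging at 2 of 56 and 37 of 92 sites. The residue lost did not give the class where an aligned sequence differed from the reference. There the losses of alanine at A716V, leucine at L1005P and aspartate at D1224N and D1033G were benign. With the reference residue alone, all 72 sites elsewhere that lose aspartate were damaging.

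Identical exchanges with identical profile scores received like predictions in other genes. The scores are inputs to the prediction, so this likeness follows largely from the matching and is no support for the classes. Each damaging palb2 site had 9 to 32 sites elsewhere with the same exchange and the same pair of scores, and all of them were damaging. For 10 of the 12 the probability was the same at each of these sites, for instance 0.692 at all 15 sites like S668F and 0.934 at all 17 like G598S. The exceptions were P722L and P1052L, whose 32 matching sites ranged from 0.682 to 0.968. The variant R1263Q was benign, as were 20 of the 21 sites like it, which reached 0.781 at the highest.

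Proline was gained at 1 site and glycine at 2. The gain of proline, L1005P, had a probability of 0, and the aligned sequence carried proline there. Glycine was gained at D1033G, a benign site with the variant residue aligned, and at A1411G, a damaging site. General dissimilarity of the residues, by the BLOSUM62 matrix, in which lower values mark rarer exchanges, did not divide the classes. R736C and L1005P have a value of -3 and were benign, whereas A792S and L1270V have a value of 1 and were damaging. The median value was -1.5 at damaging and 0.5 at benign sites of palb2.L, and 0 and 0.5 in palb2.S.

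The copies were then compared with each other. Missense fractions of palb2.L and palb2.S differed by -1.54 percentage points (L minus S, Newcombe 95% interval -23.8 to 20.4; Fisher's exact test, two-sided, adjusted p = 1). The same test was made in all 480 pairs with at least 5 coding sites in each copy, of which 0 passed (0% called) after Benjamini-Hochberg adjustment. An unadjusted p under 0.05 was found in 16. The median absolute difference in these pairs was 16.0 points, and 445 pairs differed by more than palb2. Pairs entered with as few as 5 coding sites per copy, and only 138 had at least 10, against 30 and 39 in palb2. Differences vary more at small counts, so this rank does not show that the palb2 copies are unusually alike. The Newcombe interval is wide and leaves room for a difference of 20 points in either direction. It and the test treat each coding site as independent, although sites of 1 gene are not replicates. Both are a description of the counts only. The 6 damaging sites of each copy are among these missense sites, so the comparison is in part of counts that led to the choice of the gene.

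Other genes of homologous recombination and the Fanconi pathway, matched by their exact symbols, held fewer missense sites than either palb2 copy where they were listed. Protein lengths were not used, so these counts are not adjusted for the length of each protein. The damaging sites by which palb2 was chosen are among its missense sites, so its higher counts here are a description only. A list of 84 symbols had 15 in the pair table, palb2 included; BRCA1 and BRCA2 were not among these 15. Of the 28 copies of the other 14 genes, 15 were listed, with 33 missense sites (1 to 6 per copy), 45 synonymous sites and 5 damaging sites, each in a different copy. Their pooled missense share was 42.3%, beside 42.9% over all listed genes, and 15.2% of their predicted sites were damaging, beside 19.9%.

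Symbols ending in -like were left out of this match and were added after values were seen. They gave 3 listed copies. Of these, tp53bp1-like.L, related to a mediator of break repair, held 19 missense sites (4 damaging and 15 benign) and 19 synonymous sites. That is more missense sites than the 18 of palb2.L and fewer than the 24 of palb2.S. The copies rad50-like.S and rad50-like.L, related to an ATPase that tethers broken ends, held 5 missense sites (3 damaging) and 3 (1 damaging). With these included, 13 of 60 predicted sites (21.7%) were damaging in 18 copies. Their median aligned residues were 63, 90 and 65, in that order.

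Among the exact symbols, a helicase gene and a checkpoint gene held the most missense sites after palb2. The copy blm.L, which encodes the Bloom syndrome helicase that dissolves recombination junctions, held 6 missense sites, all benign, and 2 synonymous sites. Its homeolog blm.S held 1 missense site, possibly damaging, and 9 synonymous sites. The copy atrip.S, whose product brings the checkpoint kinase ATR to single-stranded DNA, held 5 benign and 11 synonymous sites, and atrip.L held 1 benign and 1 possibly damaging site. The ubiquitin ligase gene rnf168, which marks chromatin at breaks, had 4 benign sites in L and 1 probably damaging site in S.

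Single-stranded DNA binding genes were also listed. The large subunit copy rpa1.S held 2 missense and 14 synonymous sites, with 1 probably damaging, and rpa1.L held 2 missense sites, with 1 possibly damaging. The subunit copies rpa2.S and rpa3.S held 1 and 2 benign sites. Benign sites alone were also found in keap1.S (2), an adaptor that binds human PALB2, chek1.S (2), a checkpoint kinase, bccip.L (1), a BRCA2 partner, rmi1.S (1) and hells.L (1). The median aligned residues of the 15 exact-symbol copies ranged from 2, in blm.S and rmi1.S, to 130.5 in chek1.S, and the middle copy had 30.5.

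Of the 5 exact-symbol copies other than palb2 with at least 5 coding sites, 0 differed from all other genes in missense fraction by Fisher's exact test after Benjamini-Hochberg adjustment over 5005 genes. Of those 5005, 66 passed (1.32% called), 31 with a higher fraction (0.619%) and 35 with a lower one (0.699%). The copy rpa1.S, with 12.5% missense, had an unadjusted p under 0.05 (Fisher's exact adjusted p = 0.296). None of the 3 -like copies passed that test either, with Fisher's exact adjusted p from 0.760 to 1. For the damaging share, 0 of 2 testable exact-symbol copies and 0 of 2 -like copies passed, among 1112 genes of which 0 passed (0% called) and 35 had an unadjusted p under 0.05.

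**Figure D5:**
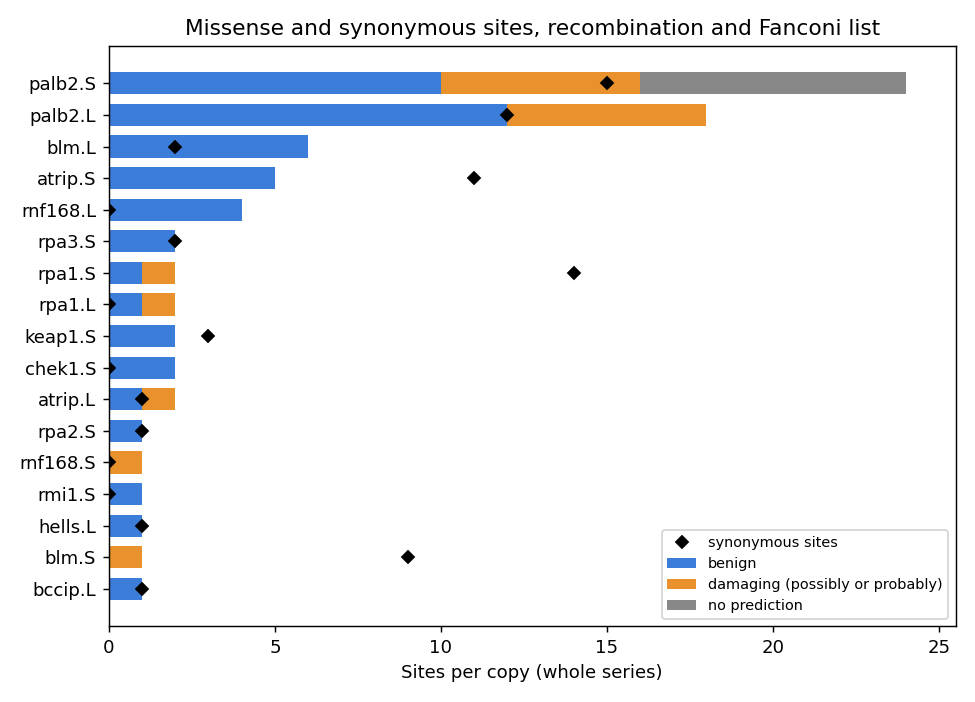
Missense sites per listed copy (bars, split into benign, damaging and unclassified sites) and synonymous sites (diamonds) for palb2 and the listed copies of the recombination and Fanconi genes matched by exact symbol; the x axis counts sites over the whole series. The palb2 copies, chosen for their damaging sites, reach 24 and 18 missense sites, and the next copy drawn, blm.L, has 6. The -like copies are not drawn, and tp53bp1-like.L among them has 19.

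Likeness to other pairs was measured as the sum of absolute differences in 6 counts (benign, damaging and synonymous sites in L and in S) over 1020 other pairs with a symbol and both copies listed. The nearest was pde4dip, which encodes a phosphodiesterase-binding protein of the centrosome and Golgi, at a sum of 16. It held 7 benign, 5 damaging and 8 synonymous sites in L and 12, 4 and 13 in S. Its median aligned residues were 60 in L and 35.5 in S, in contrast to 1 and 2 in palb2. The next were ptprn2, a receptor phosphatase family member, at 22, and suco-like and sun1, a nuclear envelope protein, at 23 each. Their medians ran from 23 to 98 aligned residues, so none of these 4 pairs shared the thin alignments of palb2.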

How the data were processed

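RNA from pools of whole tadpoles was depleted of ribosomal RNA, per the labels' protocols. TopHat, SAMtools, Trimmomatic and CASAVA 1.8.2 are listed, with no role, in the submitters' processing notes. How variants were called, and on which build, is not given in the sources used here. No value is corrected for read depth.

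The authors deposited counts of variant sites per gene and a PolyPhen-2 table per protein change. Per the file headers, that table holds the probability of damage as a fraction, profile scores, aligned residues, and the percent identity of the closest differing homologue. A header line counted as a gene was left out. The reference residue was taken as alone in the alignment where no differing homologue was listed, and the variant as aligned where a homologue carrying it was scored; this reading of the columns follows PolyPhen-2's usual output.

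Fisher's exact tests (two-sided) ran over the whole table with Benjamini-Hochberg adjustment at 0.05 in Python 3.11.15 with scipy 1.17.1. The missense fraction tests, per gene and per pair, were tried on simulated data with large planted differences. The damaging share tests were not tried in this way. Genes needed 5 coding or 5 predicted sites, and pairs 5 coding sites per copy. BLOSUM62 values came from biopython 1.88. Sites of 1 gene are not replicates, so placement and alignment carry no test. The Fisher's exact tests, per gene and per pair, count sites as if they were independent. The planned test of the damaging share between L and S is not given for palb2, which was chosen on those counts. The gene, the lists and the tests were chosen with earlier results of these data known. All palb2 sites and 4 of the 5 nearest pairs were named, and the other pair is not reported here; naming every listed member of the gene list, in place of those with 2 damaging sites or a passed test, departs from the plan. The -like symbols, site groups no more than 30 residues apart, residue kinds and matching exchanges were chosen after values were seen.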

Additional observations from a re-analysis of the deposited data

How the results depend on the processing

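The damaging shares of palb2 depended on what counted as damaging. With probably damaging sites alone, palb2.L had 0% (0 of 18) and palb2.S 12.5% (2 of 16). At a predicted probability of at least 0.9, the shares were 5.56% and 12.5%. With all missense sites as the denominator, they were 33.3% and 25.0%, inside the intervals of the reported shares. With at least 10 aligned residues no palb2 site remained, so no value was given. Counting each protein position once left the missense fractions at 60.0% and 61.5%. The number of genes passing for the missense fraction was 66, and it was 94 with at least 10 sites per gene (67 of them higher, against 31 of 66), 28 with no minimum and 14 once the 1% of genes richest in sites was left out. For the damaging share 0 genes passed, and 1 passed with probably damaging sites alone. For L against S, 0 pairs passed for the missense fraction and 1 of 138 with at least 10 sites per copy. In each of these L against S settings for the missense fraction, palb2 had an adjusted p of 1 by Fisher's exact test. The damaging sites that led to the choice of palb2 are among the sites compared, so this is no separate evidence that its copies are alike. The causes of these shifts were not tested. No paired analysis was possible because there was 1 library per group and no column names a library; for the same reason no library could be left out. Alignment depth, at 1 or 2 residues for 33 of the 34 predicted sites, limits every class given for palb2.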
